A study of Saccharomyces cerevisiae with 18 samples.

Results

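The glyoxylate cycle and gluconeogenesis genes described here are 8 genes of the budding yeast Saccharomyces cerevisiae, taken by their systematic names from the 6612 transcripts of the deposited table. They are ICL1 (YER065C), MLS1 (YNL117W), CIT2 (YCR005C), MDH2 (YOL126C), SFC1 (YJR095W), IDP2 (YLR174W), FBP1 (YLR377C) and PCK1 (YKR097W). All 8 were found, and all 8 passed the filter on low values (a mean over all libraries of 1 TPM or more, TPM being the length-corrected share of all transcripts) that left 6309 genes for testing. The libraries came from polyadenylated RNA of whole cells of a pair of homozygous diploids, RM11, which descends from a vineyard yeast, and YJM975, a clinical isolate. Both strains were grown as 5 mL cultures in S-CSM, a synthetic medium, with 2% glucose, 2% glycerol or 2% ethanol, and were harvested at an optical density of about 0.5 to 1.0. Each of the 6 combinations of strain and medium had 3 libraries, described as biological triplicates. Each strain is 1 diploid, so a difference between strains is a difference between these 2 diploids.

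Yeast that lives on ethanol or acetate has to build sugars from small acetyl units, and the glyoxylate cycle lets it do so by bypassing the steps of the citric acid cycle that release carbon dioxide. Isocitrate lyase (Icl1) splits isocitrate into succinate and glyoxylate, malate synthase (Mls1) joins glyoxylate to acetyl-CoA, and the resulting malate and oxaloacetate feed phosphoenolpyruvate carboxykinase (Pck1) and fructose-1,6-bisphosphatase (Fbp1), the enzymes of the irreversible steps of gluconeogenesis. Glucose is known to repress transcription of these genes, in part through Mig1. The Snf1 kinase and the activators Cat8 and Sip4, which bind the carbon source response element, turn many of them on when glucose is gone. When glucose returns, the GID ubiquitin ligase marks Fbp1, Icl1 and Mdh2 for degradation.

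Upstream sequences of the members are shown for the stretches that match the element named in the background, and they are given from the S288C reference (RefSeq, assembly R64), not from RM11 or YJM975. The 600 bases before the start codon were searched on both strands for the published consensus of the carbon source response element. It was found in 33 of 6024 genes (0.548%) and in 4 of the 8 members (ICL1, MLS1, MDH2 and PCK1). The consensus was derived in part from such genes, and it and the length of the window were added to a search planned with a looser form, so these matches are a description. Positions count back from the base before the start codon. The MLS1 match at 531 to 520 and the MDH2 match at 433 to 422 lie on the strand opposite to the gene, so their printed bases run towards the farther position. The 12 bases of each match are in capitals, with 7 flanking bases on either side, read 5′ to 3′ on the strand that carries the match:
ICL1, bases 399 to 388 before the start codon: ccaggttTCCATTCATCCGagcgatc
MLS1, bases 531 to 520 before the start codon: ggggattTCCATTGAGCCGatagcaa
MLS1, bases 501 to 490 before the start codon: catagctTCCATTGGGCCGatgaagt
MDH2, bases 433 to 422 before the start codon: tgatgagTCCATTTGGCCGgggaagg
MDH2, bases 401 to 390 before the start codon: atacggcCCCTTTAATCCGcaattac
MDH2, bases 378 to 367 before the start codon: tactttgCCCATTCGGCCGtagccgt
PCK1, bases 482 to 471 before the start codon: ccgagctTCCTTTCATCCGgcgcggc

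MLS1 held 2 of these matches and MDH2 held 3. A looser form, which fixes only the outer CC and CCG and the T between them, overlaps all of them by construction and was present upstream of 6 of 8 members, adding SFC1 and IDP2, against 8.7% of all genes searched. FBP1 and CIT2 had neither form in this window. The 6-base forms of the site of the repressor Mig1 (GGGG after GC, GT, CC or CT) occurred upstream of 7 of 8 members, SFC1 being the exception, and of 27.8% of all genes. FBP1 was the one member with 2 of them, shown with the match in capitals, that at 198 to 193 being on the strand opposite to the gene:
FBP1, bases 470 to 465 before the start codon: ttcacctCCGGGGtattatt
FBP1, bases 198 to 193 before the start codon: atatagtGTGGGGaagatgc

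Of 3 reference genes for the medium, HXT1 and HXK2 did not follow the labels and ADH2 did. HXT1, a hexose transporter gene that high glucose induces, was at its lowest in the libraries labelled glucose, with 2.20 ± 0.171 TPM (SD, n = 3) for RM11 and 1.37 ± 0.104 TPM for YJM975, against means of 5.69 and 6.53 TPM in ethanol. HXK2, the hexokinase gene that glucose induces, was highest in RM11 libraries labelled glycerol. There it stood at 64.8, 78.3 and 70.9 TPM, and in no other library above 5.95 TPM. ADH2, the alcohol dehydrogenase gene that glucose represses, was lowest in glucose in both strains, with 144 ± 16.3 TPM for RM11 and 72.7 ± 6.36 TPM for YJM975, and reached 1686 ± 122 TPM in RM11 glycerol. The members, whose transcription glucose is known to repress, were in part high in libraries labelled glucose. Of the 8, 6 had their highest group mean in RM11 glucose, and 2 had their lowest in YJM975 glucose. FBP1 and IDP2 were highest in glucose in both strains, and the reason was not tested. Media are therefore given as labelled, and the comparisons without glucose were also fitted without those libraries. A code that begins each library's label is 1 string for all glucose libraries and another for the rest, so a difference between glucose and another medium and a difference between the 2 sets of libraries cannot be told apart. Comparisons of ethanol with glycerol lie within 1 set. Every library summed to 1000000 TPM within 1 TPM, so sequencing depth and counting error are unknown. The spread of the members between replicates was small, with coefficients of variation from 0.532% to 14.3% over their 48 group means.

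ICL1 and MLS1, which encode the enzymes particular to the glyoxylate cycle, were among the more abundant transcripts, ranking 123 and 142 by mean TPM. In RM11, ICL1 stood at 1842, 1863 and 1668 TPM in glucose, at 496, 508 and 528 TPM in glycerol and at 1714, 1508 and 1654 TPM in ethanol. In YJM975 the same gene stood at 428, 414 and 360.2 TPM in glucose, 442, 514 and 436 TPM in glycerol and 1905, 1787 and 1918 TPM in ethanol. ICL1 thus fell into a high and a low range. Both ethanol groups and RM11 glucose formed the high one, where neighbours in rank overlapped but the ethanol groups were apart from each other. Both glycerol groups and YJM975 glucose formed the low one, where the glycerol groups overlapped and YJM975 glucose lay apart below them. A level is an average over a culture, in which fewer expressing cells and less RNA per cell cannot be told apart.

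MLS1 stood at 2055, 2101 and 1869 TPM in glucose, 274, 275 and 285 TPM in glycerol and 1049.9, 919 and 982 TPM in ethanol in RM11. In YJM975 its libraries read 995, 969.7 and 824 TPM in glucose, 404, 468 and 387 TPM in glycerol and 1313, 1243 and 1320.0 TPM in ethanol. MLS1 therefore kept an intermediate level in YJM975 glucose, where ICL1 was at its lowest, and its 6 groups were all apart except RM11 ethanol and YJM975 glucose.

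**Figure D1:**
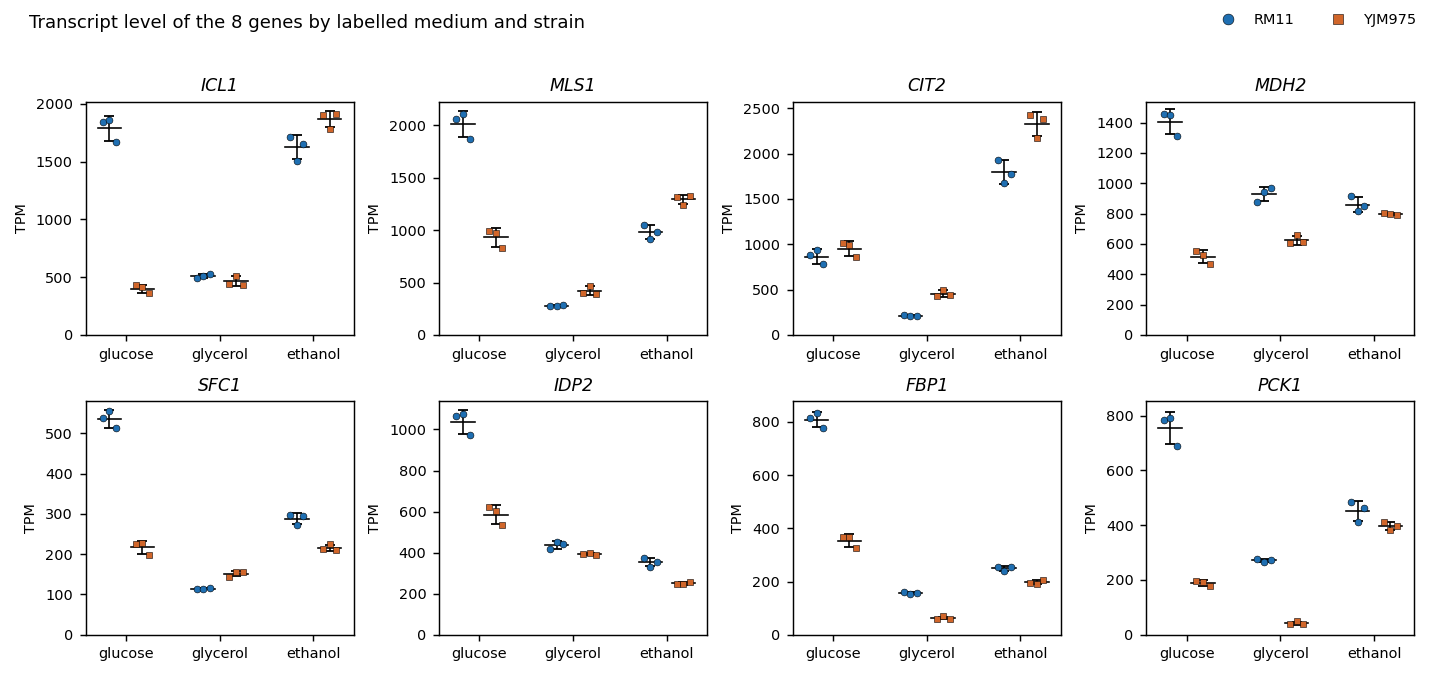
Transcript levels of the 8 genes in TPM (y axes, from 0) in each library, by labelled medium (x axes) and strain. Points are libraries, lines are means and bars are SD over 3 libraries; RM11 glucose was the highest group for 6 genes, and YJM975 ethanol for ICL1 and CIT2.

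CIT2, the peroxisomal citrate synthase that supplies the cycle with citrate, was the one member with its highest levels in ethanol in both strains. Its RM11 libraries held 876, 936 and 782 TPM in glucose, 226, 209 and 209 TPM in glycerol and 1932, 1674 and 1775 TPM in ethanol. The YJM975 libraries held 1009, 988 and 854 TPM, 428, 499 and 436 TPM and 2425, 2176 and 2380.1 TPM in the same order. The strains overlapped in glucose and were apart in glycerol and ethanol, with YJM975 higher in both.

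MDH2, the cytosolic malate dehydrogenase that turns malate into oxaloacetate for gluconeogenesis, varied least of the 8, by 2.73-fold between its highest and lowest group mean. It ranged from 1406 ± 81.3 TPM in RM11 glucose to 514 ± 43.1 TPM in YJM975 glucose, so that both extremes lay in libraries labelled glucose. SFC1, the mitochondrial carrier that exchanges succinate for fumarate and so brings succinate from the cycle into mitochondria, stood in RM11 at 536 ± 21.8 TPM in glucose, 115 ± 1.56 TPM in glycerol and 289 ± 13.2 TPM in ethanol. In YJM975 it stood at 217 ± 16.1 TPM, 152 ± 6.33 TPM and 216 ± 7.59 TPM, and its glucose and ethanol libraries overlapped. IDP2, the cytosolic NADP-dependent isocitrate dehydrogenase, followed an order of media shared by both strains. It fell from 1037 ± 57.3 TPM in glucose to 437 ± 17.8 TPM in glycerol and 353 ± 20.2 TPM in ethanol in RM11, and from 586 ± 45.1 TPM to 394 ± 5.67 TPM and 249.8 ± 5.76 TPM in YJM975. It was the one member lowest in ethanol in both strains.

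FBP1 and PCK1, the gluconeogenic pair, had the widest ranges, 12.8-fold and 18.1-fold between group means. FBP1 stood at 814, 835 and 777 TPM in RM11 glucose, 159, 154 and 156 TPM in glycerol and 255, 239 and 256 TPM in ethanol. Its YJM975 libraries held 368, 366 and 325 TPM in glucose, 59.7, 69.3 and 60.1 TPM in glycerol and 195, 191 and 207 TPM in ethanol. No neighbouring groups of FBP1 overlapped, the order of media was the same in both strains (glucose, ethanol, glycerol), and RM11 lay above YJM975 in each medium.

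PCK1 stood at 785, 793 and 688 TPM in glucose, 276, 265 and 274 TPM in glycerol and 484, 412 and 462 TPM in ethanol in RM11. In YJM975 it stood at 195, 193 and 177 TPM, 37.9, 48.6 and 38.7 TPM and 410.4, 383 and 397 TPM in the same media. The 3 YJM975 glycerol libraries were the lowest of all 18, while the strains lay close together in ethanol. PCK1 was the most abundant in glucose in RM11 and in ethanol in YJM975.

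Together the 8 transcripts made up 0.921 ± 0.055% of all TPM in RM11 glucose (SD, n = 3), 0.291 ± 0.00707% in glycerol and 0.661 ± 0.0422% in ethanol. In YJM975 they made up 0.414 ± 0.0349%, 0.261 ± 0.0174% and 0.735 ± 0.0259%. TPM is scaled by length, so levels can be set beside each other within a library, and the leading member changed with the group. It was MLS1 in RM11 glucose, MDH2 in both glycerol groups and CIT2 in both ethanol groups and YJM975 glucose, where CIT2 overlapped MLS1 (and, in RM11 ethanol, ICL1). Across the 18 libraries, which share 6 groups, Pearson's r of log2(TPM + 1) between members was highest for MLS1 with SFC1 (0.915) and FBP1 with PCK1 (0.825), and it was 0.741 for ICL1 with MLS1. It was below 0 for 3 of 28 pairs, CIT2 with IDP2 (-0.277), ICL1 with IDP2 (-0.0529) and MDH2 with CIT2 (-0.0183).

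In libraries labelled glucose, most of the pathway was lower in YJM975 than in RM11, from isocitrate lyase to the gluconeogenic enzymes, and CIT2 was not. Differences are on the log2(TPM + 1) scale, with their SE, from limma fitted to all 6309 genes, and a gene was called at a Benjamini-Hochberg adjusted p below 0.05 over all of them. ICL1 differed by -2.16 ± 0.075 (limma adjusted p = 2.35e-14), PCK1 by -1.99 ± 0.084 (limma adjusted p = 3.26e-13) and MDH2 by -1.45 ± 0.065 (limma adjusted p = 7.38e-13). SFC1, FBP1 and MLS1 were lower by about as much as each other, at -1.30 ± 0.056, -1.20 ± 0.061 and -1.11 ± 0.078, and IDP2 lay at -0.82 ± 0.059 (limma adjusted p at most 5.67e-10). CIT2 stood at 0.14 ± 0.082 (limma adjusted p = 0.134). With 7 of 8 members called lower, 6 of them by 2-fold or more, the background is that 60.7% of all tested genes were called lower and 23.4% by 2-fold or more. The median member differed by -1.25 and the median gene by -0.38. The CIT2 difference was called in favour of YJM975 with median centring (0.56, limma adjusted p = 5.36e-07), with rescaling without the 50 most abundant genes (0.23, limma adjusted p = 0.00609), and without YJM975 glucose replicate 3 (0.21, limma adjusted p = 0.0294).

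In glycerol the strains split the pathway. The gluconeogenic genes were lower in YJM975, PCK1 at -2.68 ± 0.084 (limma adjusted p = 4.84e-15) and FBP1 at -1.30 ± 0.061 (limma adjusted p = 1.16e-12). The acetyl-CoA-consuming synthases were higher, CIT2 by 1.08 ± 0.082 (limma adjusted p = 9.46e-10) and MLS1 by 0.59 ± 0.078 (limma adjusted p = 1.58e-06), as was the carrier gene SFC1 by 0.40 ± 0.056. Against the median gene, which was itself lower in YJM975 (-0.59), CIT2 lay at 1.67, MLS1 at 1.18 and PCK1 at -2.09. The count was 3 of 8 higher and 4 of 8 lower, beside 16.2% and 70.1% of all tested genes. MDH2, at -0.58 ± 0.065, lay 0.017 above the median gene, and its sign turned with median centring (0.11). IDP2 (-0.15 ± 0.059, limma adjusted p = 0.0282) and ICL1 (-0.14 ± 0.075, limma adjusted p = 0.0859) had directions that depended on the scaling, and both came out higher in YJM975 with median centring (0.54 and 0.55). The IDP2 call was lost without RM11 glycerol replicate 2 or 3 or YJM975 glycerol replicate 1 or 3, where it lay between -0.15 and -0.13, and ICL1 was called lower (-0.22) without YJM975 glycerol replicate 2.

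In ethanol the strain differences of the members were small, none reaching 2-fold. MLS1, CIT2 and ICL1 were higher in YJM975, by 0.39 ± 0.078, 0.38 ± 0.082 and 0.20 ± 0.075, and IDP2, SFC1 and FBP1 were lower, at -0.49 ± 0.059, -0.42 ± 0.056 and -0.34 ± 0.061 (limma adjusted p from 2.49e-06 to 0.0332). That is 3 of 8 in each direction, beside 26.8% of tested genes higher and 21.2% lower. PCK1, at -0.19 ± 0.084 (limma adjusted p = 0.0753), and MDH2, at -0.11 ± 0.065 (limma adjusted p = 0.182), missed the threshold, although the libraries of the strains did not overlap for either. Both were called lower with each of the scaling alternatives (median centring, quantile normalization and rescaling without the 50 most abundant genes), at -0.23 and -0.15 with median centring. PCK1 was also called without RM11 ethanol replicate 2 (-0.25) and with a fit of the ethanol groups alone (-0.19, limma adjusted p = 0.0471). The ICL1 call was lost without RM11 ethanol replicate 2 or 3 or YJM975 ethanol replicate 1 or 3, at 0.15 to 0.22.

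**Figure D2:**
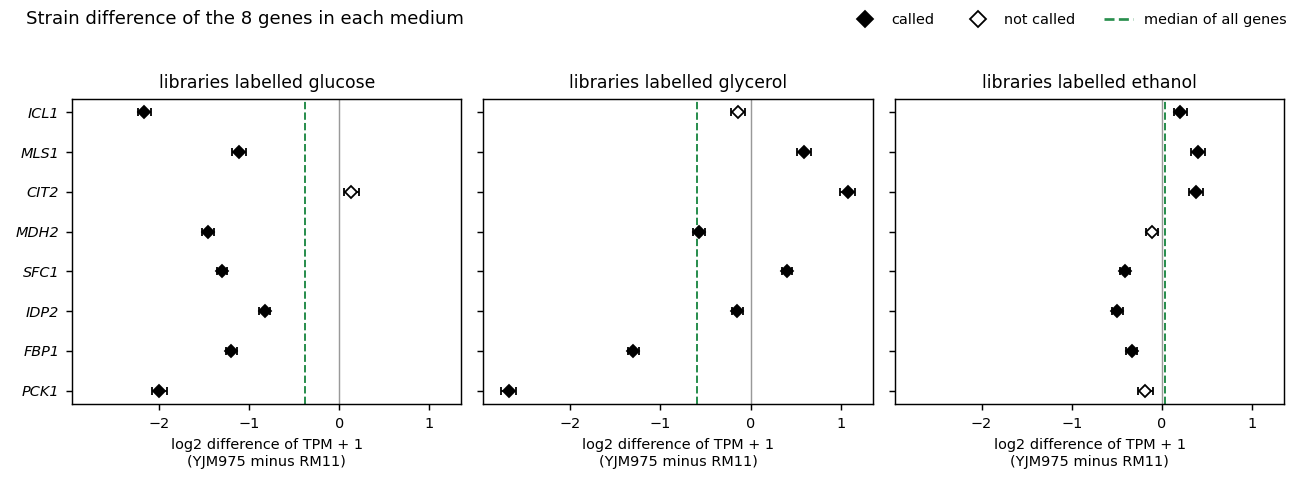
Difference between the strains in log2(TPM + 1), YJM975 minus RM11 (x axes), for each of the 8 genes (y axis) in each labelled medium. Diamonds are limma estimates with SE bars, filled where called and open where not, and the dashed line is the median of all tested genes; ICL1 and PCK1 lay farthest to the left in glucose and PCK1 in glycerol, while with median centring the glycerol values of ICL1, MDH2 and IDP2 turned positive.

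Most of the pathway stood higher in ethanol than in glycerol in both strains, a comparison within 1 set of libraries. CIT2 rose by 3.06 ± 0.082 (limma adjusted p = 3.46e-15) in RM11 and 2.36 ± 0.082 (limma adjusted p = 8.72e-14) in YJM975, a larger change than that of 99.1% of tested genes in each strain. ICL1 rose by 1.67 ± 0.075 and 2.01 ± 0.075, and MLS1 by 1.82 ± 0.078 and 1.62 ± 0.078. The gluconeogenic genes rose less in RM11 than in YJM975, PCK1 by 0.73 ± 0.084 and 3.23 ± 0.084 and FBP1 by 0.67 ± 0.061 and 1.64 ± 0.061, and that difference was tested. SFC1 rose by 1.32 ± 0.056 and 0.51 ± 0.056. IDP2 was lower in ethanol in both, at -0.31 ± 0.059 and -0.66 ± 0.059. In RM11, 6 of 8 members were called higher and 1 lower, beside 21.4% and 54.1% of all genes. In YJM975, 7 were called higher and 1 lower, beside 64.0% and 13.1%. The median gene moved by -0.23 in RM11 and 0.36 in YJM975, and the median member by 1.03 and 1.63. MDH2 moved little and with a sign set by the scaling, from -0.11 ± 0.065 to 0.19 in RM11 and from 0.35 ± 0.065 to -0.071 in YJM975 with median centring, which also ended the calls of IDP2 in RM11 and SFC1 in YJM975.

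In RM11 all 8 members were lower with glycerol as the labelled medium than with glucose, 7 by 2-fold or more, beside 28.7% of tested genes lower, 53.0% higher, and 7.24% lower by 2-fold or more. MLS1 differed by -2.85 ± 0.078 (limma adjusted p = 1.89e-15), FBP1 by -2.36 ± 0.061 (limma adjusted p = 1.05e-15) and SFC1 by -2.21 ± 0.056 (limma adjusted p = 7.84e-16), and the smallest difference was that of MDH2 at -0.59 ± 0.065. In YJM975, 6 were lower and 2 higher, beside 42.6% and 41.2% of all genes. FBP1 (-2.47 ± 0.061) and PCK1 (-2.16 ± 0.084) were lower by the most, whereas MDH2 (0.28 ± 0.065) and ICL1 (0.21 ± 0.075) were slightly higher. The ICL1 call was lost without YJM975 glucose replicate 3 (0.13) or YJM975 glycerol replicate 2 (0.13), and with a fit of these groups alone (limma adjusted p = 0.0513).

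Between ethanol and glucose libraries most members were lower in ethanol in RM11 and most were higher in YJM975. The YJM975 count was near the share of all genes, and the median member there moved by 0.56 beside 0.35 for the median gene. In RM11, FBP1 (-1.69 ± 0.061), IDP2 (-1.55 ± 0.059) and MLS1 (-1.03 ± 0.078) were among 6 members lower in ethanol, and CIT2 was the 1 higher, at 1.05 ± 0.082, beside 37.4% and 32.0% of all genes. ICL1 stood at -0.14 ± 0.075 (limma adjusted p = 0.106) and was called without RM11 glucose replicate 3 (-0.19). In YJM975, 5 members were higher, led by ICL1 at 2.22 ± 0.075, CIT2 at 1.29 ± 0.082 and PCK1 at 1.07 ± 0.084, and IDP2 (-1.22 ± 0.059) and FBP1 (-0.83 ± 0.061) were lower, beside 56.5% of genes higher and 30.3% lower. SFC1 there stood at -0.0052 ± 0.056 (limma adjusted p = 0.933) and was called lower with each of the scaling alternatives, at -0.45 with median centring, which ended the call of MLS1 (0.038). The comparisons with glucose share the glucose libraries, so their values are given side by side only.

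**Figure D3:**
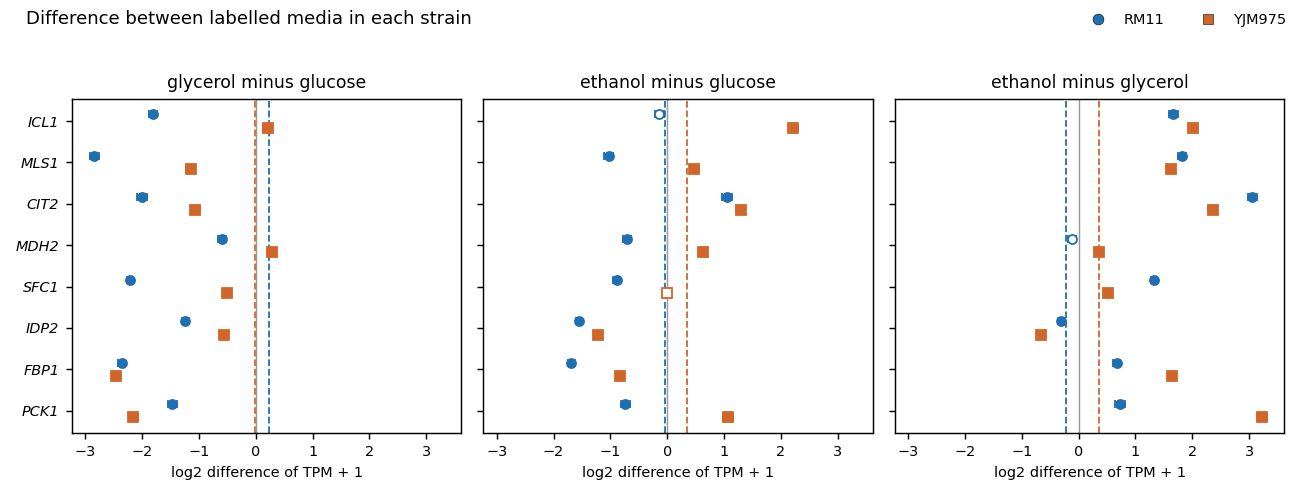
Difference between labelled media in log2(TPM + 1) (x axes) for the 8 genes (y axis), with circles for RM11 and squares for YJM975. Symbols are limma estimates with SE bars, open where not called, and dashed lines are the median of all tested genes in that strain; in ethanol minus glycerol ICL1, MLS1, CIT2, SFC1, FBP1 and PCK1 lie right of 0 in both strains, and the MDH2 sign turned with median centring in both.

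The strains differed in how the members moved between media, tested as the change in YJM975 minus the change in RM11. PCK1 differed most between ethanol and glycerol, at 2.50 ± 0.12 (limma adjusted p = 2.57e-12). It stood at 41.8 ± 5.97 TPM in YJM975 glycerol and 272 ± 5.59 TPM in RM11 glycerol but at 397 and 453 TPM in ethanol. FBP1 differed the same way, by 0.97 ± 0.087 (limma adjusted p = 1.46e-08). SFC1 (-0.82 ± 0.08) and CIT2 (-0.70 ± 0.12) rose less in YJM975 than in RM11. In all, 4 of 8 members were called higher and 3 lower for this difference, beside 65.4% and 15.4% of genes, the median gene differing by 0.60. Relative to that median PCK1 lay at 1.90, FBP1 at 0.37 and ICL1 at -0.25, and ICL1 and MDH2 had the opposite sign with median centring (-0.39 and -0.27). MLS1, at -0.19 ± 0.11 (limma adjusted p = 0.115), was the member not called, but it was called lower with each of the 3 scaling alternatives, at -0.93 with median centring. Counting both directions, 80.8% of genes were called.

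For the differences that involve glucose, ICL1 led, at 2.36 ± 0.11 (limma adjusted p = 1.83e-12) between ethanol and glucose and 2.02 ± 0.11 (limma adjusted p = 1.35e-11) between glycerol and glucose. Between ethanol and glucose 7 of 8 members were called higher and none lower, beside 56.5% and 20.2% of genes, and the member not called, CIT2, stood at 0.24 ± 0.12 (limma adjusted p = 0.0689). Between glycerol and glucose 6 were called higher and PCK1 lower, at -0.69 ± 0.12, beside 31.5% and 46.7%, and FBP1 stood at -0.11 ± 0.087 (limma adjusted p = 0.269). The median gene differed by 0.40 and -0.18, and 76.8% and 78.3% of genes were called in either direction. With median centring CIT2 and IDP2 turned negative for ethanol and glucose (-0.23 and -0.14), and CIT2 was called higher there without RM11 glucose replicate 3 (0.31) and without RM11 ethanol replicate 1, YJM975 glucose replicate 1 or YJM975 ethanol replicate 2.

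Ratios of transcripts within a library do not depend on the scaling to a fixed total, and they are given as descriptions, since 3 libraries against 3 cannot go below p = 0.1 in an exact two-sided permutation test. The ratio of ICL1 to MLS1, whose products act one after the other, was 0.892 ± 0.00489 in RM11 glucose, 1.84 ± 0.0222 in glycerol and 1.65 ± 0.0279 in ethanol. In YJM975 it was 0.432 ± 0.00487, 1.11 ± 0.0191 and 1.45 ± 0.00770, below RM11 in every medium, and no library of one strain overlapped the other strain's in the same medium. FBP1 and PCK1 stood near parity in RM11 glucose (1.07 ± 0.0491) and at 0.576 ± 0.00466 and 0.554 ± 0.0277 in glycerol and ethanol. YJM975 held more FBP1 than PCK1 in glucose (1.87 ± 0.0290) and glycerol (1.52 ± 0.0800), and less in ethanol (0.499 ± 0.0225).

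**Figure D4:**
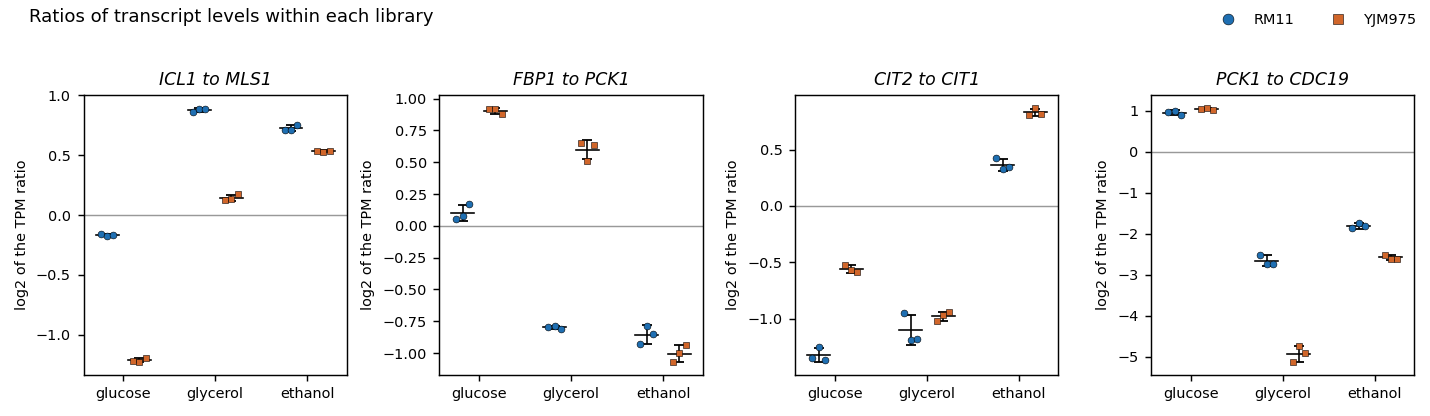
Log2 of the ratio of a pair of transcripts in TPM within each library (y axes) by labelled medium (x axes) and strain, with points for libraries and lines and bars for means and SD over 3. The grey line at 0 marks equal levels; CIT2 lies above CIT1 in ethanol only, and PCK1 lies above CDC19 in glucose only.

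Several members have isoenzymes in other compartments. CIT1, the mitochondrial citrate synthase, exceeded CIT2 in glucose and glycerol, with CIT2 to CIT1 at 0.400 ± 0.0171 and 0.467 ± 0.0442 in RM11 and 0.679 ± 0.0148 and 0.508 ± 0.0139 in YJM975. In ethanol CIT2 exceeded CIT1, at 1.29 ± 0.0476 and 1.78 ± 0.0415. MDH2 exceeded the peroxisomal MDH3 in every library of both strains. Its ratio to MDH3 was 2.50 ± 0.108 in RM11 glucose and close to parity in YJM975 glucose (1.06 ± 0.0236). In ethanol the ratio was 1.74 ± 0.092 in RM11 and 1.74 ± 0.0538 in YJM975. MDH2 to the mitochondrial MDH1 ran from 0.592 ± 0.0273 in YJM975 glucose to 2.58 ± 0.0779 in RM11 glycerol. IDP2 exceeded its mitochondrial isoenzyme IDP1 throughout, with ratios of 6.62 ± 0.526 and 6.31 ± 0.108 in glycerol and 2.29 ± 0.146 and 2.25 ± 0.0352 in ethanol.

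A list of 9 related enzyme genes (CIT1, CIT3, MDH1, MDH3, IDP1, IDP3, DAL7, ICL2 and ACO1) was compared between the strains. In glucose it was called for 1 higher and 7 lower of 9 (list median -0.63), beside 22.5% and 60.7% of all genes (median -0.38). For glycerol the count was 2 higher and 5 lower of 9 (list median -0.15), beside 16.2% and 70.1% (median -0.59). For ethanol it was 1 higher and 3 lower of 9 (list median -0.089), beside 26.8% and 21.2% (median 0.028). ICL2, which encodes a mitochondrial methylisocitrate lyase, was lower in YJM975 at -2.08 ± 0.075 (limma adjusted p = 3.76e-14) in glucose and -1.80 ± 0.075 in glycerol. CIT3, a mitochondrial citrate and methylcitrate synthase gene, stood at -1.81 ± 0.093 (limma adjusted p = 3.5e-12) in glycerol, and IDP3, the peroxisomal isocitrate dehydrogenase gene, at -1.69 ± 0.067 (limma adjusted p = 1.01e-13). Relative to the median gene in glycerol these were -1.21 for ICL2, -1.22 for CIT3 and -1.09 for IDP3. DAL7, a malate synthase gene of allantoin breakdown and the closest relative of MLS1 in coding sequence (75.9% identical over 94.4% of it), stayed at or below 6.86 TPM in all libraries. CIT2 and CIT1 align at 74.7% and IDP2 and IDP1 at 70.5%. Only the longest alignment of each member to another gene in R64 was kept, and none of these was above that of MLS1 in identity.

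Glycolytic genes that oppose the gluconeogenic members were set beside them within each library. PFK1, a subunit of phosphofructokinase, which opposes Fbp1, stood between 63.2 and 184 TPM as group means, and FBP1 to PFK1 fell from 6.71 ± 0.219 in RM11 glucose and 5.59 ± 0.0690 in YJM975 glucose to 0.854 ± 0.0379 and 0.484 ± 0.0220 in glycerol. CDC19, the main pyruvate kinase, which opposes the step of Pck1, stood at 387 ± 17.6 TPM and 91.1 ± 3.60 TPM in glucose and between 1258 and 2353 TPM in the other groups. PCK1 to CDC19 was 1.95 ± 0.0724 and 2.07 ± 0.0326 in glucose, and 0.159 ± 0.0148 and 0.0332 ± 0.00446 in glycerol. The list of 9 genes (PFK1, PFK2, CDC19, PYK2, PYC1, PYC2, PFK26, PFK27 and FBP26) was called for 2 higher and 4 lower of 9 (list median -0.13) in ethanol against glycerol in RM11, beside 21.4% of all genes higher and 54.1% lower (median -0.23). In YJM975 it was called for 6 higher and 1 lower of 9 (list median 0.51) in ethanol against glycerol, beside 64.0% and 13.1% (median 0.36). PFK27, which makes the allosteric activator of phosphofructokinase, was lower in YJM975 glycerol, at -3.52 ± 0.095 (limma adjusted p = 7.74e-16), with 2.87 ± 0.611 TPM against 43.2 ± 3.74 TPM.

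Transcripts of regulators were compared beside the members. The list of 23 regulators had 9 higher and 6 lower of 23 (list median 0.08) called between YJM975 and RM11 in glucose, 4 higher and 13 lower of 23 (list median -0.18) in glycerol and 7 higher and 4 lower of 23 (list median 0.0069) in ethanol. Of all tested genes 22.5% were higher and 60.7% lower in glucose, 16.2% and 70.1% in glycerol, and 26.8% and 21.2% in ethanol, with medians of -0.38, -0.59 and 0.028. CAT8, the activator gene, was higher in YJM975 glucose by 0.77 ± 0.078 (limma adjusted p = 5.57e-08), at 69.0 ± 5.95 TPM against 39.9 ± 1.66 TPM, where 7 of 8 members were lower. CAT8 and SIP4 differed between the strains by -0.037 ± 0.078 and -0.052 ± 0.079 in glycerol, neither called. MIG1, the glucose repressor gene, stood at 45.6, 56.6 and 54.5 TPM in RM11 glycerol and at 6.39, 6.75 and 5.97 TPM in YJM975 glycerol, and its strain difference there was -2.85 ± 0.084 (limma adjusted p = 2.15e-15). HXK2, which also takes part in glucose repression, differed the same way, by -4.67 ± 0.12 (limma adjusted p = 5.95e-16). The other MIG genes of the list were split. MIG2 was higher in YJM975 glycerol, at 30.6 ± 2.58 TPM against 21.0 ± 0.866 TPM in RM11 glycerol, and MIG3 lower, at 5.33 ± 0.494 TPM against 9.75 ± 0.262 TPM. RTG1, a regulator of CIT2 in the retrograde response, stood at 132 ± 17.1 TPM in YJM975 glucose and 39.0 ± 2.77 TPM in RM11 glucose, a difference of 1.73 ± 0.097 (limma adjusted p = 1.75e-11). The other RTG genes of the list did not stand higher in YJM975 glucose. RTG3 was at 25.2 ± 1.90 TPM against 34.0 ± 0.566 TPM in RM11 glucose, and RTG2 at 47.2 ± 2.54 TPM against 49.9 ± 0.337 TPM.

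**Figure D5:**
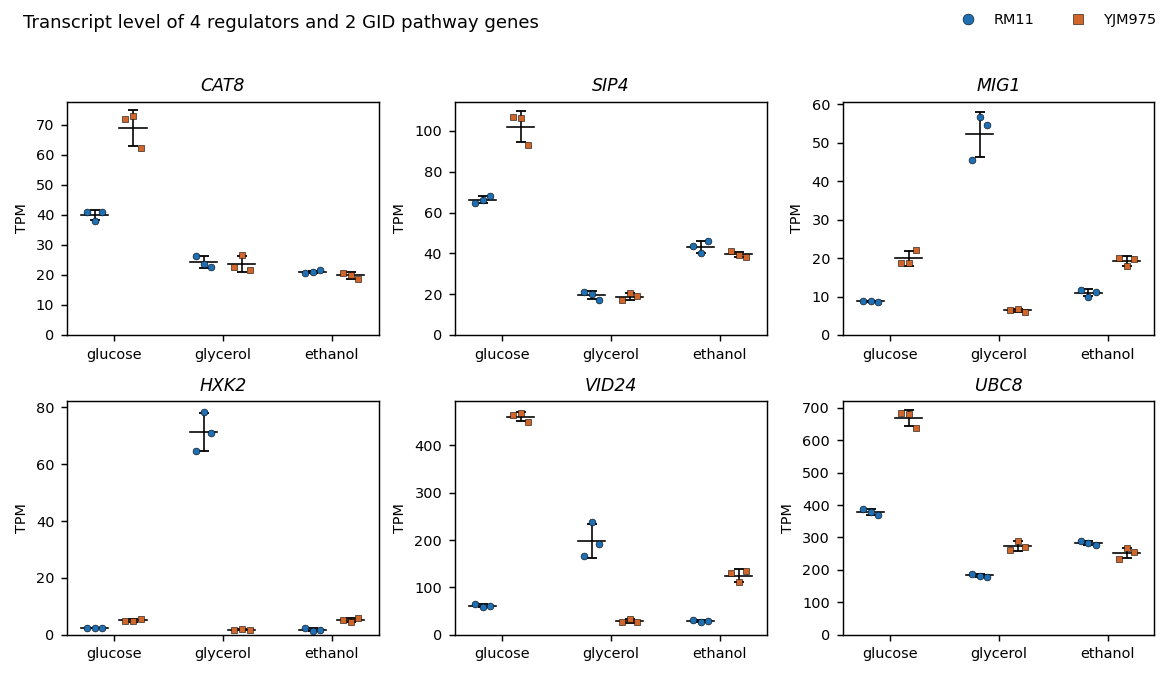
Levels in TPM (y axes, from 0) of the regulator genes CAT8, SIP4, MIG1 and HXK2 and of the GID pathway genes VID24 and UBC8 by labelled medium (x axes) and strain, with points for libraries and lines and bars for means and SD over 3. MIG1 and HXK2 stand highest in RM11 glycerol, and CAT8, SIP4, VID24 and UBC8 in YJM975 glucose.

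Genes of the GID ubiquitin ligase, which acts on the enzymes and not on their transcripts, were called for 6 higher and 3 lower of 9 (list median 0.29) between the strains in glucose, 8 higher and 1 lower of 9 (list median 0.37) in glycerol and 3 higher and 1 lower of 9 (list median 0.0096) in ethanol, beside shares of all genes of 22.5% higher and 60.7% lower in glucose, 16.2% and 70.1% in glycerol, and 26.8% and 21.2% in ethanol. VID24 encodes the substrate receptor Gid4, which glucose is known to induce. It stood at 65.1, 59.2 and 60.0 TPM, 167, 238 and 191 TPM and 31.3, 27.6 and 29.2 TPM across glucose, glycerol and ethanol libraries of RM11. In YJM975 it stood at 464, 469 and 449 TPM, 26.7, 33.2 and 26.1 TPM and 130.1, 111 and 135 TPM. The strain difference was 2.89 ± 0.11 (limma adjusted p = 8.95e-14) in glucose, -2.74 ± 0.11 (limma adjusted p = 1.28e-13) in glycerol and 2.05 ± 0.11 (limma adjusted p = 1.11e-10) in ethanol. GID10, a second substrate receptor gene, was higher in YJM975 glycerol by 2.08 ± 0.046 (limma adjusted p = 1.03e-16), and UBC8, the partner ubiquitin-conjugating enzyme gene, was highest in YJM975 glucose, at 668 ± 25.6 TPM against 378 ± 9.53 TPM in RM11.

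Among 5056 other genes that averaged 10 TPM or more, those whose log2(TPM + 1) followed a member most closely over the 18 libraries were ranked by Pearson's r, as a description of libraries that share 6 groups. MLS1 was followed by ZIM17 (0.960), RMI1 (0.957) and CIT1 (0.954), CIT1 being the mitochondrial citrate synthase. ICL1 was followed by YHR112C (0.959), DAL5 (0.958) and DUR3 (0.952), of which DAL5 and DUR3 are permease genes of nitrogen source uptake. CIT2 had PHB2 (0.969), ECL1 (0.961) and YAT2 (0.954) nearest, YAT2 being a carnitine acetyltransferase gene, and SFC1 had GUT1, the glycerol kinase gene, at 0.974. PCK1 had GNT1 (0.971), DNL4 (0.968) and PFK26 (0.965), PFK26 being a relative of PFK27. FBP1 was nearest to CUR1 (0.976), MDH2 to LDO16 (0.977) and IDP2 to SMN1 (0.974). The mean profile of the 8 was nearest to YAH1 (0.977), the mitochondrial ferredoxin gene.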

How the data were processed

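Messenger RNA of 18 cultures, 6 groups of 3, was sequenced; per the labels' protocols a sequencing institute extracted RNA from frozen cells and made polyA-enriched libraries. The authors deposited TPM values. The submitters' processing notes name kallisto, with its version, settings and index not given in the sources used here. TPM keeps no depth, so precision rests on the 3 libraries of a group, and a rise of abundant transcripts lowers all others. Replicates correlated at 0.9951 to 0.9979 across transcripts, and no 2 libraries were identical.

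Genes averaging 1 TPM or more were tested with limma (3.58.1, R 4.3.3) on log2(TPM + 1), in 1 fit of 6 group means with 12 contrasts, empirical Bayes with trend and Benjamini-Hochberg adjustment over 6309 genes within each contrast. p-values measure the spread between replicate cultures. The scripts were tested on simulated data. The members, lists and contrasts were chosen with earlier results of these data known. The rule named all members, from each list up to 4 called genes with the largest change in a comparison, and the 3 nearest genes in profile. Values are printed for only some of the list genes and nearest genes it names; HXT1, HXK2 and ADH2 checked the medium, and 8 ratios were set with the design. List genes given in further comparisons (CAT8, SIP4, MIG2 and MIG3 in glycerol, RTG2 and RTG3 in glucose, DAL7 levels) were chosen after their values were seen. The carbon source response element consensus and the 600-base window were added after the design was set. As alternatives, the pseudocount was 0.1 or 5, the filter was dropped or raised to 10 TPM, 3 other scalings and 3 other fits were used, and each library was omitted; a fit without the glucose libraries was added after seeing the data. Names and upstream bases came from R64 (5929 of 6612 transcripts matched), whose coordinates are not printed because the authors' build is not named. Coding sequences were aligned with BLAST (2.17.0). The planned description of protein sequences was not made, and 1 gene of the planned lists is not reported here. Python 3.11.15, pandas 2.3.3, NumPy 2.4.6 and matplotlib 3.10.9 were used.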

Additional observations from a re-analysis of the deposited data

Results flagged for a closer look

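The change between media differed between the strains, by limma's test of the difference itself, for 21 of 24 combinations of member and pair of media. Values are the log2 change in YJM975 minus that in RM11. Between glycerol and glucose the differences were 2.02 for ICL1, 1.70 for MLS1, 0.88 for MDH2, -0.69 for PCK1, 0.94 for CIT2, 1.70 for SFC1, 0.68 for IDP2. Between ethanol and glucose they were 2.36 for ICL1, 1.51 for MLS1, 1.34 for MDH2, 0.86 for FBP1, 1.81 for PCK1, 0.88 for SFC1, 0.33 for IDP2. Between ethanol and glycerol, within 1 set of libraries, they were 0.34 for ICL1, 0.47 for MDH2, 0.97 for FBP1, 2.50 for PCK1, -0.70 for CIT2, -0.82 for SFC1, -0.35 for IDP2. Beside this, 78.3%, 76.8% and 80.8% of all tested genes were called for the same 3 differences, so the count of members called is near the background. The part that the medium labels, which ADH2 followed and HXT1 and HXK2 did not, or the separate set of glucose libraries have in these differences was not tested.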

How the results depend on the processing

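Of 96 member results (8 genes in 12 contrasts), 76 kept their side of the threshold, and their direction where called, under all 29 alternatives that could be fitted. A turn of sign was counted as a change only where the main fit or the alternative called the result. The number of members called and of all genes called moved by at most 1.33 times. Pseudocounts, filters, the variance trend and the replicate block changed none of the 96, and the fit without the glucose libraries none of 40. The labels do not say what a replicate number shares. Correlations of the deviations of same-numbered libraries from their group means were weak, from -0.217 to 0.159. They were positive for every number in YJM975 ethanol with YJM975 glucose (0.013, 0.044 and 0.117) and in RM11 ethanol with RM11 glycerol (0.011, 0.012 and 0.024). With the replicate block 5249 genes and 7 members were called between the strains in glucose. Median centring changed 17 results, quantile normalization 7 and rescaling without the 50 most abundant genes 10. Signs turned for ICL1 between the strains in glycerol (0.55, 0.14 and 0.21 with these scalings in that order), for IDP2 there (0.54, 0.11 and 0.21) and for MDH2 there with median centring (0.11). With median centring they also turned for MDH2 between ethanol and glycerol in RM11 (0.19) and YJM975 (-0.071). Among the differences of response they turned with median centring for CIT2 (-0.23) and IDP2 (-0.14) between ethanol and glucose, and for ICL1 (-0.39, or -0.051 with rescaling) and MDH2 (-0.27) between ethanol and glycerol. Median centring and rescaling shift all genes of a library together, quantile normalization moves them by rank, and TPM alone does not say which scaling is right. The fit of the compared groups alone changed 2 results, ICL1 between glycerol and glucose in YJM975 (call lost, 0.21) and PCK1 between the strains in ethanol (called, -0.19). Leaving out 1 library changed the call of 9 results, and turned the sign of none that was called with or without that library. Beside those named in the report, MDH2 between ethanol and glycerol in RM11 was called without RM11 ethanol replicate 1 (-0.16). PCK1 between the strains in ethanol was called without YJM975 glycerol replicate 2 (-0.19). Depth is unknown, so the counting error of low transcripts such as HXT1 and DAL7 cannot be given.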
